A study of Homo sapiens with 12 samples.

Results

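The 41 genes described here are interferon-stimulated genes other than the IFIT, OAS, MX and GBP families, taken by name from the expression tables of HT1080 cells treated with either of 2 agents. All 41 were listed in both tables, out of 16101 genes in the phorbol 12-myristate 13-acetate (PMA) table and 15991 in the concanavalin A (ConA) table. HT1080 is an established human fibrosarcoma line, labelled wild type in every sample, so the data describe 1 line in culture. The cells, seeded at 1000000 per dish, grew for 3 days in biotin-depleted medium and were then moved to the same medium with 1% serum, in which the treated dishes received their agent. PMA, a phorbol ester that activates protein kinase C, was given at 40 nM for 24 h to 3 samples and compared with 3 controls. ConA, a lectin that binds mannose-rich glycans on the cell surface, was given at 40 µg/mL for 24 h to 3 samples and compared with 3 other controls. What the controls received was not given in the sources used here. The labels do not say that replicates were separate cultures, so the p-values measure the spread between these libraries, which may be technical.

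Interferons are secreted proteins that cells release on sensing viral nucleic acid. Type I and type III interferons bind their receptors and, through JAK kinases, activate transcription factors that bind the interferon-stimulated response element (ISRE) in the promoters of their target genes. The products of these genes act at many steps of infection: they block entry, cut or modify viral RNA, tag proteins with ubiquitin-like modifiers, hold virions at the cell surface and dampen the signal itself. Many are also kept at a low level in the absence of infection, so that they can move in either direction.

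The values are normalized counts, that is, reads per gene divided by a factor for each library by the authors and not divided by gene length, so levels are compared between groups and not between genes. Estimated depth ran from 33616195 to 45567990 reads per library. Of 13 fibroblast and fibrosarcoma genes, all 13 were listed in the PMA table and 11 in the ConA table, where COL3A1 and THY1 were not. Their summed level ran from 13448 to 18358 CPM of all normalized counts of a library, and it came mainly from a few genes such as vimentin (VIM, 77843 to 285122 normalized counts), whereas S100A4 was at 69.2 to 215. T and NK cell markers were listed as well in the PMA table, 9 of 12, CD8A and CD3E among them. The summed level of these markers was 30.8 to 34.6 CPM in the PMA controls and 41.9 to 55.1 with PMA, against 1.10 to 1.43 in both ConA groups, where CD3D and CD4 were the only ones listed. Of the general leukocyte genes, PTPRC (CD45) was also listed in the PMA table alone, whereas CORO1A, LCP1 and CD53 were listed in both. The summed level of this list, mainly from LCP1, had a mean of 195.5 CPM in the PMA controls and 198.3 in the ConA controls. CD53 had a mean of 115.4 normalized counts in the PMA controls and 5.101 in the ConA controls. Myeloid genes summed to a mean of 9.88 CPM in the PMA controls and 10.99 in the ConA controls, mainly from CSF1R. Single myeloid genes differed more, in both directions. LYZ had a mean of 10.83 normalized counts in the PMA controls and 93.31 in the ConA controls, and ITGAM 35.05 and 3.685. FCGR3A was listed in the PMA table alone. B cell genes summed to at most 0.294 CPM in every library, and no hemoglobin gene was listed. The part of these transcripts in the results below was not tested. Within a library of bulk RNA, fewer expressing cells and less RNA per cell cannot be told apart.

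Interferon-stimulated genes were higher with ConA nearly throughout and, where they passed the thresholds given below with PMA, lower. With ConA, 40 of 41 genes rose, by a median of 2.78 (log2) over the 41, or 6.86-fold, and none fell. With PMA, 9 of 41 fell and none rose, and the median change over the 41 was -0.47 (0.721-fold). A gene was said to rise or fall where limma gave an adjusted p of at most 0.0001 and a log2 fold change of at least 1. Among all genes tested, 5.83% rose and 2.88% fell with ConA, and 4.03% rose and 4.61% fell with PMA, with medians of 0.00 in both. The 41 genes together took up 2.38% ± 0.0513 (SD, n = 3) of all normalized counts in the ConA libraries and 0.326% ± 0.00307 in their controls. In the PMA experiment their share was 0.195% ± 0.00334 with PMA and 0.292% ± 0.00307 in the controls. Abundant genes weigh most in this share, among them 2 that did not pass with PMA. IFITM3 had a mean of 10104 normalized counts with PMA and 17980 in the controls, and LGALS3BP 8874 and 13042. The 3 libraries of each group lay apart from those of the other group in both comparisons of this share.

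**Figure D1:**
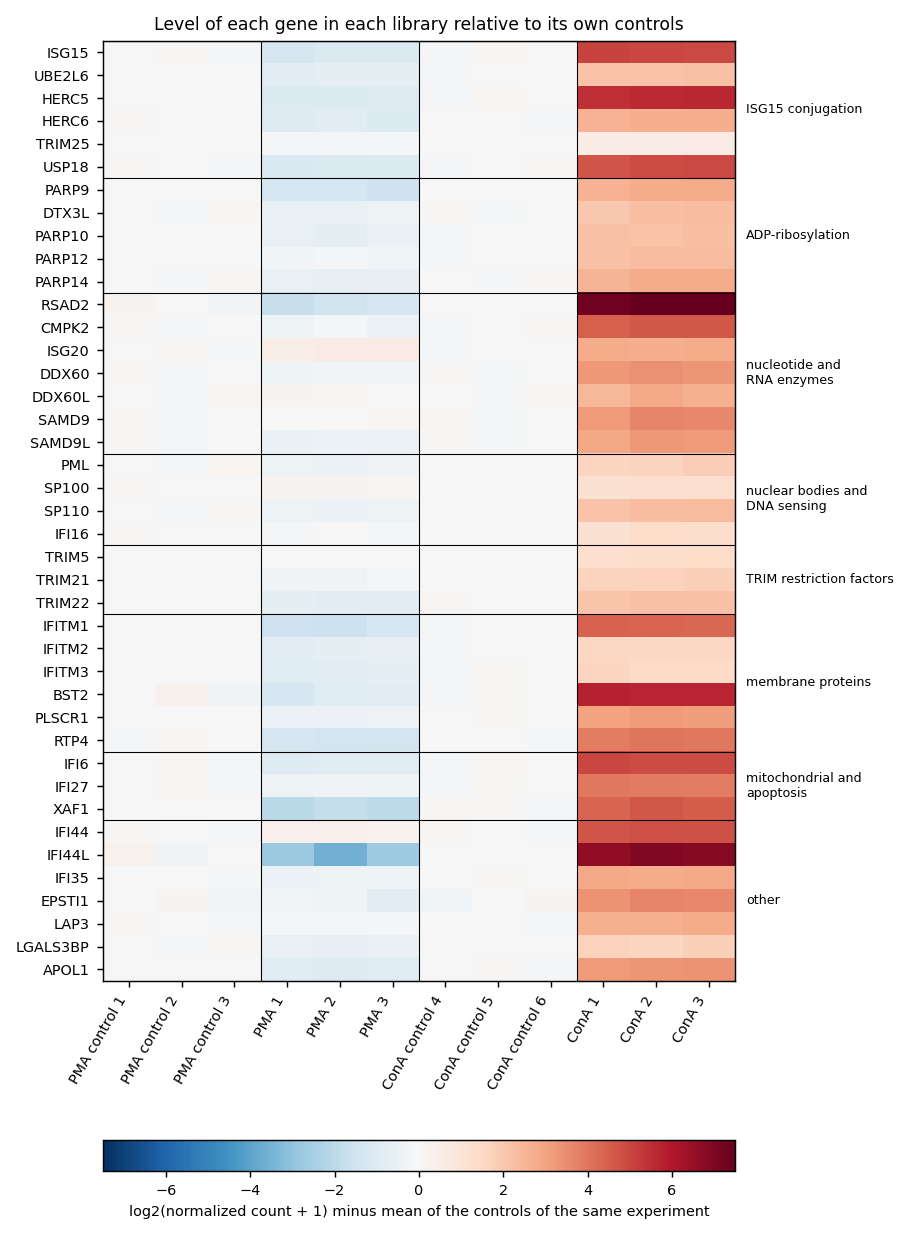
Level of each of the 41 genes (rows, grouped by role) in each of the 12 libraries (columns), as log2(normalized count + 1) minus the mean of the 3 controls of the same experiment (colour). All 41 rows are red in the 3 ConA columns, deepest for RSAD2 and IFI44L, whereas the PMA columns are pale blue in most rows and blue for IFI44L and XAF1.

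The separation of libraries follows the same division. In the ConA experiment, every one of the 41 genes had its 3 treated libraries above its 3 controls, which held for 34.9% of all genes tested. With PMA, 33 genes had all treated libraries below all controls (33.1% of genes tested), 3 had them above (34.8%), and the groups overlapped in DDX60L, SAMD9, IFI16, TRIM5 and EPSTI1. Without a fold minimum, at an adjusted p of at most 0.0001 alone, 23 of the 41 were lower with PMA (11.2% of genes tested) and 1 was higher (14.7%), and all 41 were higher with ConA (15.8%). Replicates were close: the SD over 3 libraries, as a median over the 41 genes, lay between 0.0634 and 0.0798 (log2) in the 4 groups. With 3 libraries against 3, an exact permutation test of a single gene cannot give a p below 0.1, so the calls rest on limma, which pools the spread over genes.

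Of the 6 genes of the ISG15 system 5 rose with ConA, and the system included 3 of the 9 that fell with PMA. ISG15 is a ubiquitin-like modifier that is coupled to other proteins and also secreted. Its normalized count was 124144, 118419 and 113699 in the ConA libraries and 3469, 4026 and 3579 in their controls, 32.2-fold higher (log2 5.01 ± 0.06 SE, limma adjusted p = 1.17e-16). With PMA it was 1099, 1292 and 1262, against 2717, 2858 and 2498 in the controls (log2 -1.14 ± 0.07, adjusted p = 6.21e-08). No treated library came within reach of a control in either experiment. HERC5, the main ligase for ISG15 in human cells, stood at 7063, 7664 and 7736 with ConA and 143, 173 and 150.3 in the controls, 48.0-fold higher (log2 5.59 ± 0.08). In the PMA experiment HERC5 was at 60.4, 59.9 and 62.3 with PMA and 121, 128 and 121 without, a change of -1.01 ± 0.12 (limma adjusted p = 2.86e-05) that lies on the fold minimum. Leaving out any of the 3 PMA libraries, or control 1 or 2, or taking the replicate number as a block ended that call (adjusted p of 0.000117 to 0.000307 with 1 library left out, 0.000125 with the block). USP18, the protease that strips ISG15 from its targets and dampens signalling at the type I receptor, had 9890.2, 11105 and 11361 normalized counts with ConA and 350.1, 366 and 396 in the controls (29.0-fold higher, log2 4.86). With PMA it fell from 266, 252 and 241 to 113, 118 and 126, a change of -1.09 ± 0.10 (limma adjusted p = 2.01e-06).

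The remaining members of this system had smaller changes. UBE2L6, the conjugating enzyme that hands ISG15 to its ligases, rose by 2.17 (log2) with ConA, and HERC6, a ligase related to HERC5, by 2.68. With PMA their changes were -0.76 and -0.94, each with its treated libraries below all controls but short of the fold minimum. TRIM25, a ubiquitin ligase that acts on the RNA sensor RIG-I, was the single gene of the 41 that did not pass both thresholds with ConA. Its normalized count was 11169, 11514 and 11704 with ConA and 7771, 7474 and 7891 in the controls, a change of 0.57 ± 0.05 (limma adjusted p = 1.97e-07) or 1.49-fold. With PMA it was 8437, 8057 and 8248, against 9063, 8793 and 9282 (log2 -0.13). The ConA libraries of TRIM25 thus lay above their controls with no overlap, by less than the fold minimum.

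Among the ADP-ribosylation genes, all 5 rose with ConA, by a narrow range of 2.20 to 2.73 (log2), and PARP9 fell with PMA. PARP9 forms a complex with the ubiquitin ligase DTX3L. It was at 18326, 20349 and 20865 normalized counts with ConA and 3025, 2999 and 2953 in the controls (6.62-fold higher). With PMA it was at 745, 762 and 637 and in the controls at 1931, 1828 and 1898, so that every treated library was below every control (log2 -1.40 ± 0.07, limma adjusted p = 9.62e-09). DTX3L itself, with 2592, 2551 and 2770.5 against 3665, 3329.8 and 3991, changed by -0.47 with PMA. PARP10, PARP12 and PARP14 are enzymes that attach single ADP-ribose units to proteins. Their changes with PMA were -0.60, -0.16 and -0.60, all short of the fold minimum.

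Of the 7 nucleotide and RNA enzymes, RSAD2 (viperin), which makes a chain-terminating nucleotide, had the largest rise of the 41 genes with ConA. It stood at 61806, 71725 and 71347 normalized counts with ConA and 405, 415 and 405 in the controls, 166-fold higher (log2 7.38 ± 0.06, limma adjusted p = 4.38e-18). With PMA the order was inverted: 89.4, 104 and 123 in the treated libraries and 338, 308 and 254 in the controls (log2 -1.50 ± 0.14, adjusted p = 2.97e-06). CMPK2, a nucleotide kinase encoded beside RSAD2, rose with ConA by 4.61, whereas with PMA it was at 174, 199 and 159 against 234, 207 and 216 (log2 -0.31, adjusted p = 0.0265). ISG20 is an exonuclease that degrades RNA. Its normalized count was 2491, 2644 and 2666 with PMA and 1808, 1841 and 1599.6 in the controls. This was a change of 0.57 ± 0.06 (limma adjusted p = 5.17e-06), the one among the 41 that was positive at an adjusted p of at most 0.0001, yet below the fold minimum. With ConA it rose by 2.78. The helicase-like DDX60 and DDX60L rose with ConA by 3.32 and 2.68, and SAMD9 and SAMD9L, antiviral proteins that restrain growth and translation, by 3.50 and 3.11. With PMA these 4 genes had changes of -0.25, 0.13, 0.03 and -0.45, in the order named. The sign of the SAMD9 value turned under quantile normalization and scaling to equal totals.

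Nuclear body and DNA sensing genes, and the TRIM restriction factors, had the lowest median changes with ConA among the role groups (1.49 and 1.74 on the log2 scale), although single genes of other groups, such as TRIM25, IFITM2 and IFITM3, had changes below 1.74. PML, which builds nuclear bodies, rose by 1.70 (log2), its partner SP100 by 1.21, SP110 by 2.28 and the DNA sensor IFI16 by 1.28. SP100 was at 10479, 11345 and 11259 normalized counts with ConA and 4935, 4645 and 4676 in the controls, the smallest rise that passed both thresholds. With PMA none of the 4 passed, their changes running from -0.41 for SP110 to 0.20 for SP100. TRIM5, which binds incoming retroviral capsids, rose with ConA by 1.31, TRIM21, a cytosolic antibody receptor, by 1.74 and TRIM22, a restriction factor of several viruses, by 2.16. With PMA, TRIM22 was at 1972, 1943 and 1859.5 against 3368, 3285 and 3338 (log2 -0.79, limma adjusted p = 1.7e-08), short of the fold minimum, with no overlap. TRIM5, at 2345, 2368 and 2404 against 2402, 2300.1 and 2385, differed by 0.0063 (log2), a value whose sign turned under 3 other scalings.

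Membrane proteins that act on virus entry and release held a wide range with ConA, and IFITM1 and RTP4 fell with PMA. The IFITM proteins sit in the plasma and endosomal membranes and hinder the fusion of enveloped viruses. IFITM1 was at 63803, 61987 and 60855 normalized counts with ConA and 2893, 3094 and 3089 in the controls (20.6-fold, log2 4.36). With PMA it was at 697, 668 and 833 and in the controls at 2119, 2056 and 1976 (log2 -1.49 ± 0.08, limma adjusted p = 1.5e-08). Its neighbours IFITM2 and IFITM3 rose by 1.54 and 1.54 with ConA and changed by -0.69 and -0.83 with PMA. The 3 coding sequences are closely alike, so reads may be divided among them with error, and the differences between the 3 are uncertain to that extent. BST2 (tetherin) holds budding virions on the cell surface. Its normalized count was 24247, 23572 and 23652 with ConA and 414, 466 and 454 in the controls, 53.5-fold higher (log2 5.74 ± 0.06). With PMA it was 92.9, 115 and 124, against 212, 275 and 184, and its change of -0.999 ± 0.16 (limma adjusted p = 0.000201) missed both thresholds narrowly. Without control 3 it passed (log2 -1.13, limma adjusted p = 2.2e-05). RTP4, a chaperone of membrane receptors, was at 2905, 3224 and 3133 with ConA and 206, 202 and 190.3 in the controls (log2 3.94). In the PMA experiment RTP4 was at 54.6, 47.5 and 51.5 with PMA and 126, 143 and 129 without (log2 -1.36 ± 0.13, limma adjusted p = 4.61e-06). PLSCR1, a phospholipid scramblase, rose by 3.12 with ConA and changed by -0.41 with PMA.

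The 3 genes tied to mitochondria and apoptosis rose together with ConA, by 3.90 (IFI27), 4.53 (XAF1) and 4.92 (IFI6) on the log2 scale. XAF1 opposes the apoptosis inhibitor XIAP. It had 6266, 7574 and 7175 normalized counts with ConA and 321, 316 and 269.5 in the controls. With PMA it had 61.5, 71.3 and 62.3, and in the controls 255, 247 and 246, 3.80-fold lower (log2 -1.93 ± 0.11, limma adjusted p = 4.66e-08). The groups stood far apart in both experiments. IFI6, a small membrane protein that counters apoptosis, was at 103910, 97703 and 95944 with ConA and 2981, 3642 and 3206 in the controls, 30.4-fold higher. With PMA it was at 1422, 1506 and 1517 against 2869, 2951 and 2618, a change of -0.92 ± 0.05 (adjusted p = 4.45e-08) that missed the fold minimum alone. IFI27, a related protein, changed by -0.32 with PMA.

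IFI44L and IFI44, neighbouring genes for related antiviral proteins of the cytoplasm, parted with PMA. IFI44L had the largest fall of the 41: 5.80, 2.85 and 5.99 normalized counts with PMA and 55.3, 36.7 and 45.1 in the controls (log2 -3.02 ± 0.34, limma adjusted p = 1.47e-05). These PMA values stand for about 5, 3 and 5 reads, so the size of the fall is imprecise. Without control 1 its call was lost (log2 -2.88, adjusted p = 0.000338 by limma). IFI44, in contrast, was at 450.4, 452 and 424 with PMA and 375, 346 and 338 in the controls, with no overlap (log2 0.32, adjusted p = 0.00221), and did not pass. With ConA both rose. IFI44L was at 5758, 7002 and 6552 against 57.3, 57.0 and 56.1, 111-fold higher (log2 6.79), and IFI44 at 12707, 13695 and 13325 against 508, 485 and 439.8 (log2 4.79).

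The other 5 genes all rose with ConA, and none of them passed both thresholds with PMA. The secreted galectin-binding glycoprotein LGALS3BP rose by 1.70 (log2), the peptidase LAP3 by 2.69, IFI35 by 2.83, APOL1, the trypanosome-lysing apolipoprotein, by 3.28 and EPSTI1 by 3.56. Their changes with PMA were -0.56, -0.12, -0.41, -0.93 and -0.47, in the same order. APOL1 came nearest to a call, at 922, 864 and 902 with PMA and 1686, 1764 and 1689 in the controls, whereas EPSTI1, at 37.1, 34.2 and 23.9 against 44.3, 51.0 and 37.0, had overlapping groups.

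**Figure D2:**
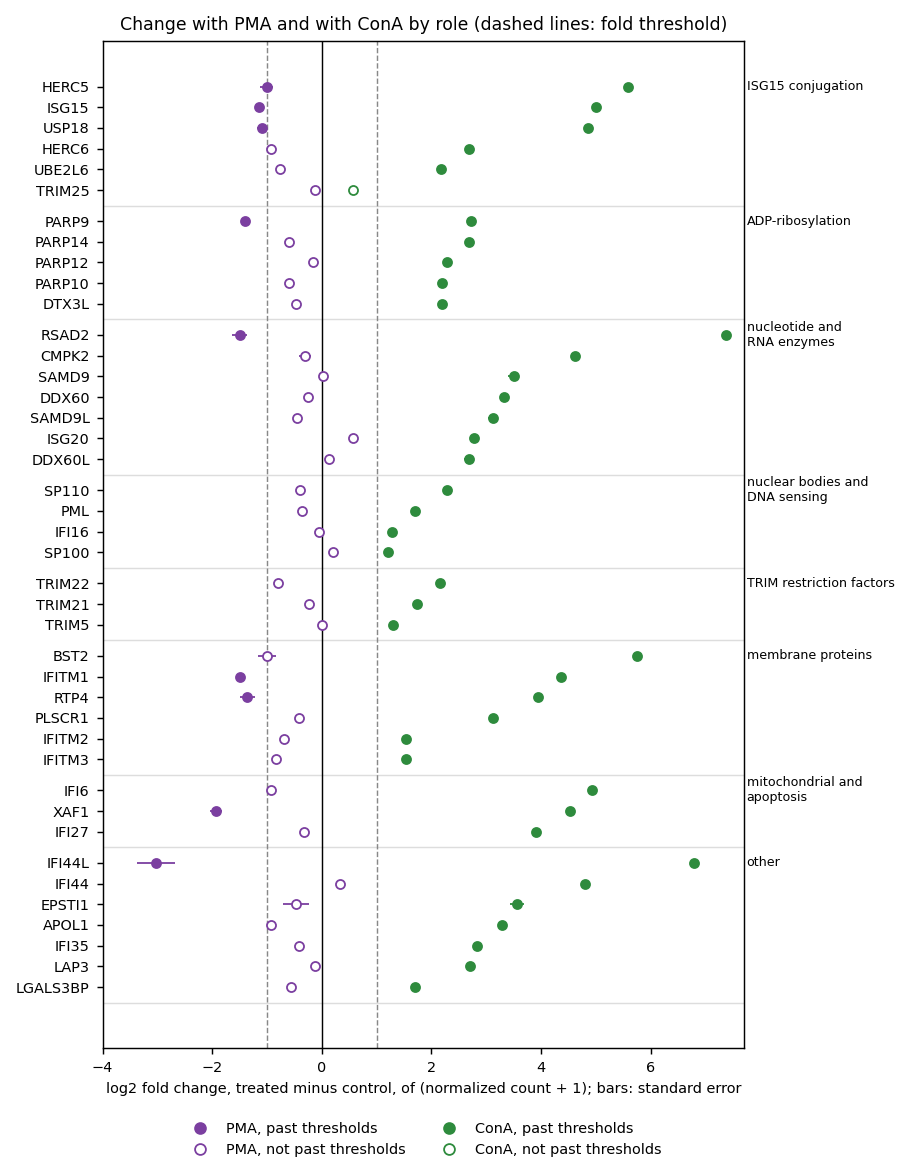
Log2 fold change of each of the 41 genes (rows, by role) with PMA (purple) and with ConA (green), treated minus control on log2(normalized count + 1). Bars are the limma standard error and filled points passed both thresholds. The ConA points run from 0.57 (TRIM25) to 7.38 (RSAD2), and the PMA points from -3.02 (IFI44L) to 0.57 (ISG20).

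The 9 genes that fell with PMA are all among the 40 that rose with ConA: IFI44L, XAF1, RSAD2, IFITM1, PARP9, RTP4, ISG15, USP18 and HERC5. Of 14661 genes tested in both experiments, 37 (0.252%) passed the thresholds in these opposite directions. Since all of the 41 but TRIM25 rose with ConA, finding the 9 among them adds little to the counts of 9 and 40. The changes were also compared directly, by subtracting the ConA change from the PMA change in one limma fit over the 12 libraries, where each change is taken within its own table. This difference was below zero and past both thresholds for 40 of the 41 genes, where 6.89% of all genes tested were, and its median over the 41 was -3.47 (log2). IFI44L (-9.82) and RSAD2 (-8.88) had the largest differences, followed by BST2 (-6.74), HERC5 (-6.59) and XAF1 (-6.46). Across the alternative settings IFI44L ran from -10.07 to -8.49 and RSAD2 from -9.07 to -8.77, so the order of these genes depends on the setting. SP100 (-1.01) had the smallest difference that passed, and it fell short of the fold minimum (-0.999 to -0.965) without PMA library 3, PMA control 1, ConA library 2 or 3 or ConA control 5 and under median centring. TRIM25 (-0.70, limma adjusted p = 1.6e-08) did not pass. Agent and experiment cannot be told apart in this comparison, since each agent was used in 1 experiment.

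**Figure D3:**
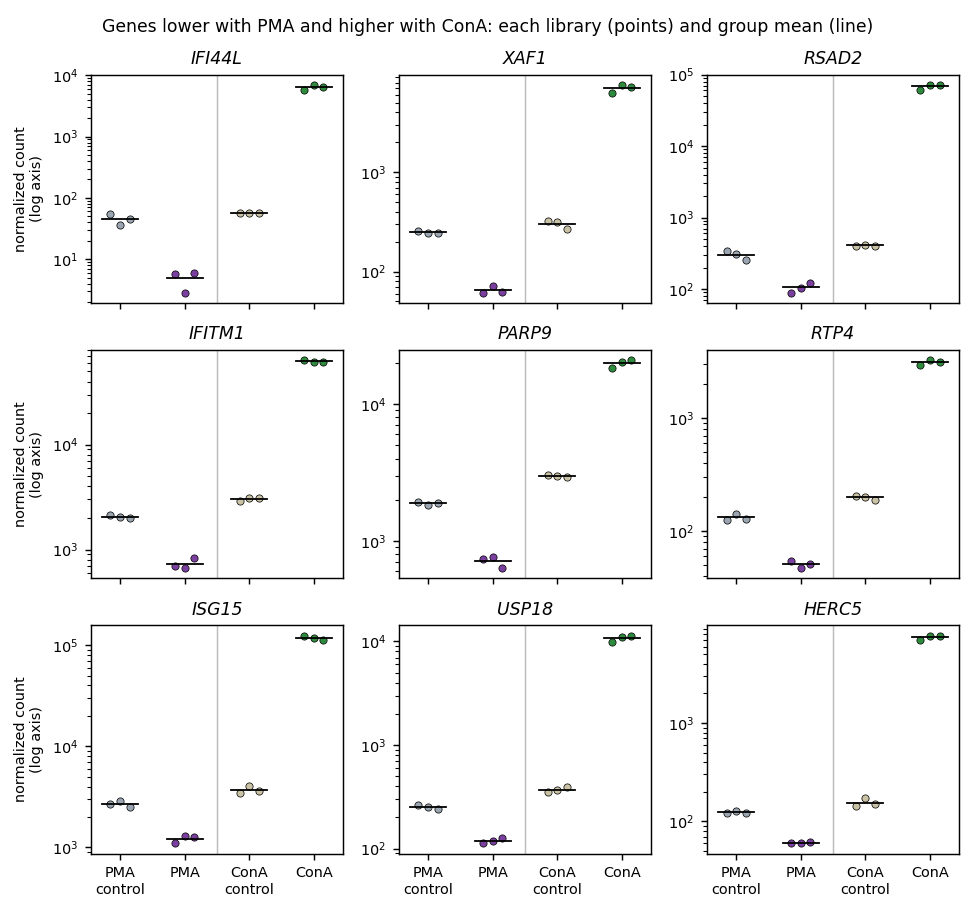
Normalized count (log axis, a scale of its own in each panel) of the 9 genes that fell with PMA and rose with ConA, in each of the 12 libraries (points), with the mean of each group of 3 (line). In each panel the 3 PMA points lie below the PMA controls and the 3 ConA points above the ConA controls, and the grey line separates the 2 tables, which were normalized apart.

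Across the 41 genes, those with larger rises with ConA tended to have lower values with PMA (Pearson's r = -0.59, Spearman's rho = -0.49). The change with ConA was also larger for genes with a lower level in the ConA controls (rho = -0.70). Both are descriptions over 41 genes measured in the same libraries, and the second includes the control level on both axes. The second also ranks levels between genes, although the counts are not divided by gene length. The level in CPM of normalized counts in the controls differed somewhat between the experiments: 32 of the 41 genes were higher in the ConA controls than in the PMA controls, by a median ratio of 1.16 (0.734 for TRIM25 to 1.71 for BST2), where the median over all genes tested in both was 0.976. The tables were normalized separately, and this was not tested.

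Several members lie side by side on a chromosome, and these pairs did not always move alike with PMA. By the order of RefSeq protein-coding genes, CMPK2 and RSAD2, DDX60 and DDX60L, HERC6 and HERC5, IFI44L and IFI44, PARP9 and DTX3L, and SAMD9 and SAMD9L are direct neighbours, as are IFITM2, IFITM1 and IFITM3. With ConA every member of these pairs rose. With PMA, HERC6 and HERC5 had close values (-0.94 and -1.01), whereas CMPK2 (-0.31) and RSAD2 (-1.50), DTX3L (-0.47) and PARP9 (-1.40), and IFI44 (0.32) and IFI44L (-3.02) stood apart by more than their standard errors. So did DDX60 (-0.25) and DDX60L (0.13), SAMD9 (0.03) and SAMD9L (-0.45), and IFITM1 (-1.49) from IFITM2 (-0.69) and IFITM3 (-0.83). The difference within a pair was not tested. Several of these pairs are paralogs, and reads that match both copies could have been given to either.

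Other genes of the interferon pathway were read from a list of 39 symbols, of which 28 were listed in the PMA table and 29 in the ConA table. With ConA, 12 of 27 tested rose (44.4%, against 5.83% of all genes tested) and none fell. With PMA 2 of 27 rose (7.41%, against 4.03% of all genes) and 1 fell (3.70%, against 4.61%), shares near those of all genes at both thresholds. Without the fold minimum, 9 of the 27 were higher with PMA (14.7% of all genes tested) and 7 were lower (11.2%). Among the ligands, IFNL1, a type III interferon, was at 36.0, 39.7 and 40.4 normalized counts with ConA and 0, 3.00 and 2.00 in the controls (limma adjusted p = 6.69e-06), a rise whose size the few control reads leave uncertain, and it was not listed in the PMA table. IFNB1, the fibroblast type I interferon, was at 8.01, 11.5 and 2.70 with ConA against 0, 1.00 and 2.00, too low to be tested, and it was not listed in the PMA table. IFNE, an epithelial type I interferon, was at 12.0, 8.36 and 6.29 with ConA against 12.5, 37.0 and 28.1 and at 62.7, 50.4 and 31.1 with PMA against 24.9, 35.8 and 36.1, and passed in neither comparison. IFNA1, IFNA2, IFNK, IFNL2 and IFNL3 were listed in neither table. IFNG, the product of T and NK cells, was listed in the PMA table alone, at 5.80, 8.55 and 14.4 with PMA and 0.922, 2.68 and 2.71 in the controls, below the level for testing.

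Receptors and signalling factors moved with ConA to unequal degrees. Of the subunits of the receptors, IFNAR2 rose by 1.15 (log2) with ConA, and IFNGR2 rose by 1.10 with PMA. Among the transcription factors, STAT2 rose with ConA by 1.98, IRF1 by 1.22 and IRF2 by 1.02. IRF9, a DNA-binding factor that works with STAT2, changed by 0.82 and did not pass. With PMA the changes of STAT2 and IRF9 were -0.24 and -0.39, short of the fold minimum. IRF7, a factor that amplifies interferon production, was listed in the PMA table alone, at 10.4, 6.65 and 12.0 with PMA and 9.22, 13.4 and 17.1 in the controls. None of the 3 JAK kinases or the 3 feedback regulators passed with either agent. SOCS1 and SOCS3, inhibitors of cytokine signalling, changed by 0.69 and -0.60 with ConA and by -0.58 and -0.54 with PMA. Sensors of nucleic acid and their adaptors gave most of the remaining calls. With ConA, IFIH1 rose by 4.17, DDX58 (RIG-I) by 3.41, DHX58 by 2.87, TLR3 by 2.46, CGAS by 1.80 and the adaptor STING1 by 1.07. TLR3, the endosomal sensor of double-stranded RNA, was the gene of this list that fell with PMA, to 89.4, 78.0 and 95.8 normalized counts from 302, 284 and 295 (log2 -1.74 ± 0.11, limma adjusted p = 8.65e-08), and CGAS rose by 1.20.

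Promoter sequences were at hand from RefSeq (GRCh38.p14, 250 bases before to 50 bases after each transcript start) for 35 of the 41 genes, and USP18, PARP10, PML, TRIM22, IFITM2 and APOL1 had no entry. The core of the ISRE, searched as GAAA, any 2 bases and again GAAA on both strands, occurred in the promoters of 25 of the 35 genes (71.4%), and in 4.38% of the 27305 genes with an entry, or 3.57% of 35116 promoters. PARP9 and DTX3L, which lie on opposite strands, share the same match, and it is counted for each of them. The core of the GAS element, TTCNNNGAA on either strand, an element of promoters that answer to type II interferon, occurred in 9 of the 35 (25.7%) and in 9.38% of all genes. To show the matches that accompany the largest changes, stretches of 50 bases around a match are printed for the 5 genes with the largest rises with ConA (RSAD2, IFI44L, BST2, HERC5 and ISG15, of which all but BST2 fell with PMA). They are followed by the 3 other genes with a match that fell with PMA (IFITM1, PARP9 and RTP4), and by TRIM5, which had the smallest rise with ConA among genes with a match. Each is written 5′ to 3′ on the strand of its gene, and capitals mark the letters of the match, which read as TTTC blocks where the core lies on the other strand.
RSAD2: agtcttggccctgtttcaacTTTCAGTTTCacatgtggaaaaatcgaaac
IFI44L: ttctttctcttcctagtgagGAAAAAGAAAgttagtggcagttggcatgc
BST2: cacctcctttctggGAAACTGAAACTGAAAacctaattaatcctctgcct
HERC5: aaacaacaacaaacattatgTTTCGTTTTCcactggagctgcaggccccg
ISG15: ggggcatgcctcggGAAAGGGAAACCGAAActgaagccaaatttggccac
IFITM1: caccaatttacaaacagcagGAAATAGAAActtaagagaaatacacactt
PARP9: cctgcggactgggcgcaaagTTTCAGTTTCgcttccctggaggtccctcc
RTP4: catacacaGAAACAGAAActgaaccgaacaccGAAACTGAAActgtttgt
TRIM5: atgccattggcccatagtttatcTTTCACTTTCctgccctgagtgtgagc

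These stretches lie at chr2:6877612-6877661 (plus strand) for RSAD2, chr1:78620355-78620404 (plus strand) for IFI44L, chr19:17405725-17405774 (minus strand) for BST2, chr4:88457025-88457074 (plus strand) for HERC5 and chr1:1013370-1013419 (plus strand) for ISG15. Those of IFITM1, PARP9, RTP4 and TRIM5 lie at chr11:313980-314029 (plus strand), chr3:122564312-122564361 (minus strand), chr3:187368335-187368384 (plus strand) and chr11:5685075-5685124 (minus strand). All of them precede the transcript start. The stretches of ISG15 and BST2 hold overlapping matches with a run of 3 GAAA repeats, and that of RTP4 holds a pair of separate matches. The promoter windows of HERC5, IFI44L and IFITM1 hold further matches outside the printed stretches. TRIM5 also holds a match 27 bases before its start, and its rise with ConA was 2.47-fold, against 166-fold for RSAD2 with its match 145 bases before the start.

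The 25 genes with an ISRE match had a median change of 3.32 (log2) with ConA, from 1.31 (TRIM5) to 7.38 (RSAD2). Over the 10 without a match the median was 2.48, from 0.57 (TRIM25) to 4.61 (CMPK2), so the ranges overlapped widely. With PMA the medians were -0.47 with a match and -0.41 without. XAF1, which fell with PMA and rose by 4.53 with ConA, had no match in its window, nor did CMPK2. A match is a description of the letters and not of a bound site, and a window without one says nothing of elements that lie farther away or differ from the core.

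**Figure D4:**
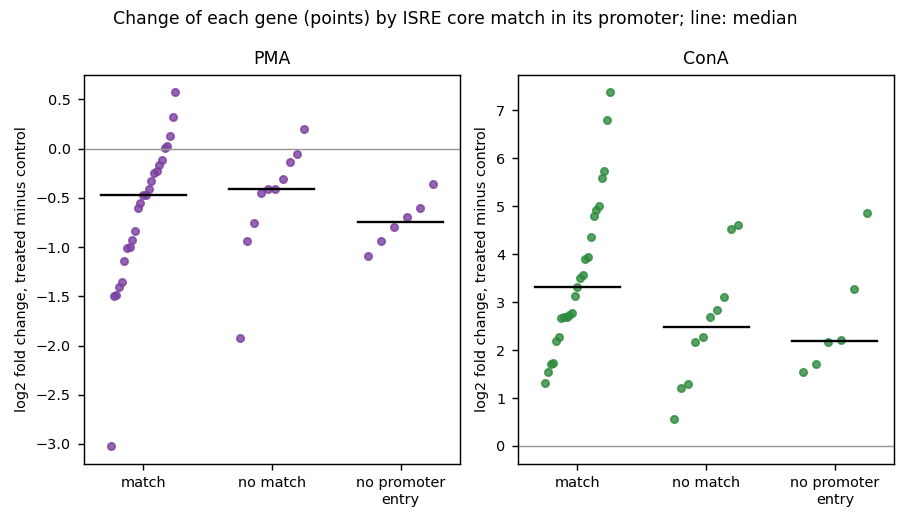
Log2 fold change with PMA (left) and with ConA (right) of each gene (points), for the 25 genes with an ISRE core match in the promoter window, the 10 without and the 6 with no promoter entry. Lines are medians: 3.32, 2.48 and 2.18 with ConA, and -0.47, -0.41 and -0.74 with PMA.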

How the data were processed

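RNA was sequenced from 12 HT1080 samples in 4 groups of 3. The authors deposited signal values in the form of normalized counts by gene symbol, in 1 table for each agent. The submitters' processing notes name Partek, STAR, Bowtie2 and DESeq2 and the builds hg19 and mm10, without roles. Whole reads could not be recovered (81.8% to 84.2% of low values came within 0.05 of a whole number), so no count test was run. Depth was estimated from those values. Treated and control libraries were compared with limma 3.58.1 (R 4.3.3) with a variance trend on log2(value + 1), which understates changes of low genes, for genes with a mean of at least 10, with Benjamini-Hochberg adjustment over all genes tested. The difference was fitted over the 12 libraries. On simulated data with 100 changed genes of each size, log2 1.5 and 3, all were recovered with PMA and ConA, and 387 of 388 for the difference. The changed genes all had a mean of at least 100 normalized counts, and the same dispersion was set for every gene. Changes in lower genes and changes near the fold minimum were not simulated. The genes named in full are those called with PMA, the 8 largest changes with ConA, opposite changes and those not called with ConA. ISG20, SP100, TRIM5, TRIM22, APOL1, DTX3L, CMPK2 and EPSTI1, and receptors, sensors and adaptors of the pathway list, were added after their values were seen. Not every gene of that list is reported here. The members, lists and tests were chosen with earlier results of these data known. Alternatives covered pseudocounts of 0.1 and 10, filters, scaling, the variance trend, thresholds, the replicate block and left-out libraries. Promoters were searched with Python 3.11.15, and plots used matplotlib 3.10.9.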

Additional observations from a re-analysis of the deposited data

Results flagged for a closer look

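For 40 of the 41 genes limma's test of the difference between the 2 agents passed both thresholds, and TRIM25 is the exception. Each value is the log2 change with PMA less that with ConA, so that a negative value means a higher change with ConA. They rest on 3 libraries in each group, and the cause of a difference was not tested.

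In the ISG15 system the differences were ISG15 -6.15, UBE2L6 -2.92, HERC5 -6.59, HERC6 -3.62 and USP18 -5.94. The ADP-ribosylation genes had a narrower range, with PARP9 -4.13, DTX3L -2.67, PARP10 -2.80, PARP12 -2.44 and PARP14 -3.29. Among the nucleotide and RNA enzymes they ran widely: RSAD2 -8.88, CMPK2 -4.91, ISG20 -2.21, DDX60 -3.56, DDX60L -2.55, SAMD9 -3.47 and SAMD9L -3.57. The nuclear body and DNA sensing genes had PML -2.06, SP100 -1.01, SP110 -2.69 and IFI16 -1.34, and the TRIM factors TRIM5 -1.30, TRIM21 -1.97 and TRIM22 -2.95. The membrane proteins had IFITM1 -5.85, IFITM2 -2.23, IFITM3 -2.37, BST2 -6.74, PLSCR1 -3.53 and RTP4 -5.30. The differences of the genes tied to mitochondria and apoptosis were IFI6 -5.85, IFI27 -4.22 and XAF1 -6.46. The remaining genes had IFI44 -4.47, IFI44L -9.82, IFI35 -3.24, EPSTI1 -4.03, LAP3 -2.81, LGALS3BP -2.26 and APOL1 -4.21.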

How the results depend on the processing

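Which genes rose with ConA did not depend on the setting as far as counts show: 40 of the 41 were called higher under every alternative, and 41 without the fold minimum. With PMA the number of the 41 that were lower was 9, and it was 23 without the fold minimum (with 1 higher), 12 with libraries scaled to equal totals, 6 without the variance trend, 8 with a pseudocount of 10 or a minimum mean of 50, and 7 to 10 with 1 library left out. The lowest, 7, was without PMA control 1. The 41 were lower in the difference between the agents in 40 cases, in 39 under median centring and in 39 to 40 with 1 library left out, SP100 being the gene lost. HERC5 lost its PMA call under 8 alternatives, USP18 under quantile normalization, and ISG15, RSAD2 and IFI44L without the variance trend (adjusted p of 0.000156, 0.00058 and 0.000362 by limma). Calls were gained with PMA by IFITM3 and IFI6 under quantile normalization (-1.02 and -1.03), by HERC6, IFI6 and APOL1 with equal totals (-1.06, -1.04 and -1.06), and by BST2 without PMA control 3 (-1.13).

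Over all genes, calls numbered 867 with PMA and 662 with ConA without the variance trend, and 3912, 4618 and 4062 (PMA, ConA and their difference) without the fold minimum, against 1310, 1318 and 1587. With 1 library left out they ranged from 1107 to 1252, from 1123 to 1415 and from 1427 to 1594. Scaling to equal totals moved the median change of all genes to -0.12 with PMA and to -0.20 in the difference, and the higher share of the calls from 46.6% to 36.6% and from 34.7% to 19.2%. Without the variance trend the higher share of ConA calls was 76.4%, against 66.9%. The small positive PMA changes of 2 genes turned negative: SAMD9 to -0.0447 (quantile normalization) and -0.0958 (equal totals), and TRIM5 to -0.0975, -0.1148 and -0.0055 (median centring). With 1 library left out SAMD9 ran from -0.0112 (without PMA control 2) to 0.0734 and TRIM5 from -0.0128 (without PMA control 2) to 0.0184, with -0.0034 without PMA library 3. The cause of these shifts was not tested.

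The PMA libraries and their controls share replicate numbers, but the correlations of deviations between same-numbered libraries were -0.06, 0.10 and 0.10, so the numbers were not taken as pairs. With the replicate number as a block, 8 of the 41 were lower with PMA, none higher, and 1264 genes were called. The block changed no other call of the 41 than HERC5 (adjusted p = 0.000125). No paired analysis was possible for ConA because its controls carry other numbers than its treated libraries. Values of a few reads, such as IFI44L with PMA, limit the size of a fall that could be measured.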
